A study of Mus musculus with 16 samples.

Results

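None of the insulin, PI3K-AKT and mTOR signalling genes measured in gastrocnemius muscle passed the test between mice with FoxO1, FoxO3 and FoxO4 deleted and their Cre-negative littermates. The set holds 32 listed genes, from the insulin receptor to the translation factors that mTOR acts on, out of 22180 genes with a probe set of their own on the array. A gene was taken from probe sets with exactly 1 gene symbol in the platform annotation, and of several the brightest on average over the 16 mice was used. By this rule 30 of the 32 genes had values, and all 30 lay above the array median in all 16 mice and so passed the filter on dim probe sets. Gsk3a shares its probe set with another symbol, and Rps6kb1 was not analysed here.

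The animals were FVB/n males sacrificed when 16 weeks old, and all carried loxP-flanked Foxo1, Foxo3 and Foxo4 alleles. The deletion group (n = 8), labelled KO, also carried Mx1-Cre, a recombinase driven by a promoter that responds to interferon. The controls (n = 8), labelled WT, were littermates without Cre. Per the labels the mice had 3 injections of polyinosine:cytidine, which induces interferon, at 4 to 5 weeks of age, and then a high-fat diet (58% fat, 25.5% carbohydrate, 16.4% protein) for 8 weeks. The labels call the deletion directed at the endothelium, although Mx1 is not an endothelial promoter, and the deletion mice differ from the controls by Cre as well. Each array held RNA from the whole muscle of 1 mouse, so fewer cells of a type and less RNA per cell cannot be told apart.

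Insulin binding switches on its receptor, a tyrosine kinase, which phosphorylates the IRS adaptors. These recruit PI3K, the lipid signal recruits AKT, and AKT restrains FoxO factors, glycogen synthase kinase 3 and the TBC1D proteins that hold the glucose transporter GLUT4 inside muscle cells. AKT also relieves the TSC brake on Rheb, which activates mTOR and protein synthesis. FoxO factors in turn bind near some genes of this pathway in other tissues, Irs2 in liver among them. The comparison shows whether transcripts of this pathway differed between deletion and control mice in whole muscle. It does not show in which cells FoxO was lost.

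The values are log2 expression, and a difference is given as deletion minus control. Of the 30 members, 0 were higher and 0 lower at an adjusted p under 0.05 with limma, where 1.83% of the 13601 genes tested were called in either direction. At an unadjusted p under 0.05 the members numbered 3 (Grb2 and Tbc1d1 lower, Ptpn1 higher), against 17.3% of all genes tested. In none of the 30 did the groups of 8 mice separate without overlap, as they did for 0.353% of all genes. The members' median difference was 0.00, with 16 positive and 14 negative, and the median over all genes tested was also 0.00. Their median absolute difference was 0.059, against 0.091 over all genes. The members also varied less within groups, with a median SD of 0.155 against 0.180 over all genes. For 28 of the 30 the 95% interval lay between -0.5 and 0.5, that is within a 1.41-fold change either way. The exceptions were Irs2 and Tbc1d1. Over all genes tested the interval lay within these bounds for 11985 of 13601. Adjusted p-values of the members from limma ran from 0.169 to 0.991.

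**Figure D1:**
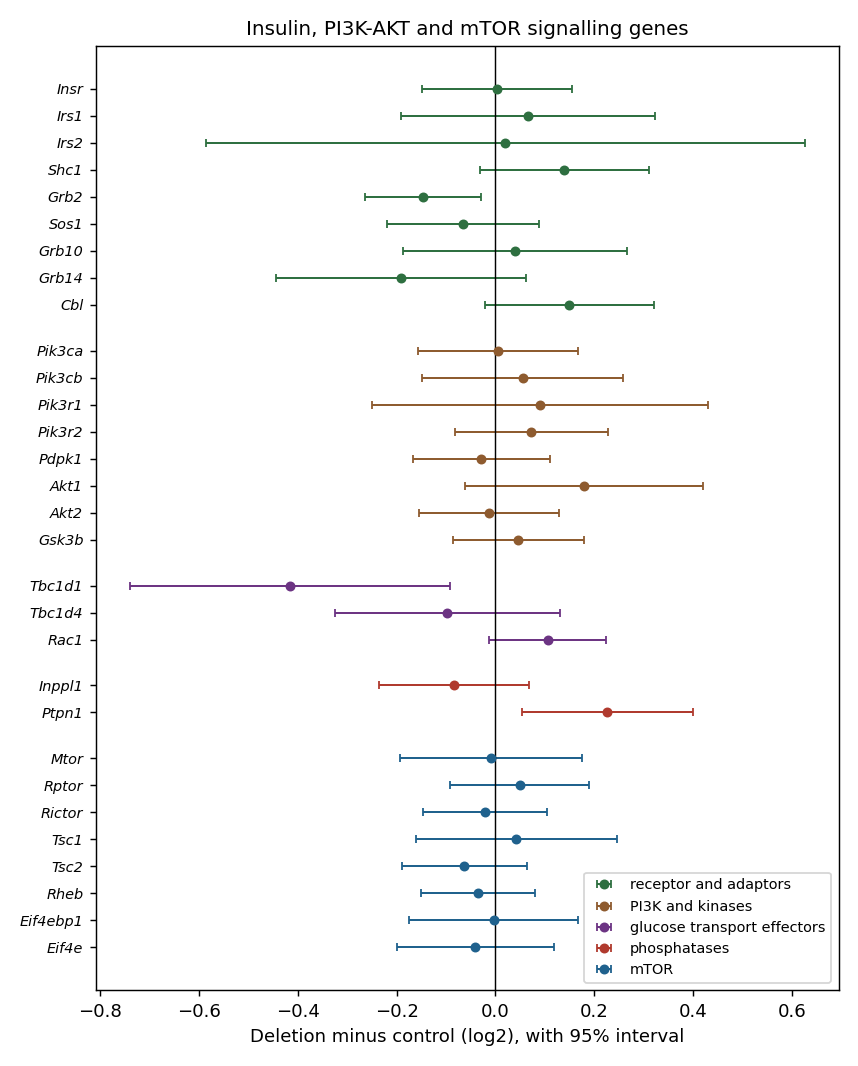
Difference between deletion and control mice (log2, horizontal axis) for the 30 measured members, grouped by step of the pathway. Points are limma estimates and bars 95% intervals, 8 mice in each group; Tbc1d1, Ptpn1 and Grb2 have intervals that leave out 0 before adjustment, and Irs2 has the widest interval, from -0.59 to 0.63.

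Among the receptor and its adaptors, the receptor itself had a difference near 0. Insr ranged from 7.85 to 8.39 in deletion mice with a median of 8.16, and from 8.03 to 8.29 in control mice with a median of 8.15. The difference of 0.00 had a 95% interval of -0.15 to 0.15 (limma adjusted p = 0.991), so a change in total Insr transcript beyond that interval was not seen in whole muscle.

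The 9 members of this step had differences from -0.19 to 0.15. Grb2, the adaptor that links SHC to the Ras exchange factor SOS, had the smallest p of them. It read 7.58, 7.46, 7.48, 7.56, 7.41, 7.46, 7.40 and 7.47 in deletion mice 1 to 8, against 7.54, 7.65, 7.51, 7.78, 7.62, 7.52, 7.74 and 7.62 in control mice 1 to 8. All 8 deletion mice lay below the control median and 6 lay below every control, with deletion mice 1 and 4 inside the control range. The difference was -0.15 (SE 0.06, n = 8 each) and did not pass over all genes tested (limma adjusted p = 0.184), with an exact two-sided permutation p of 0.00326 before adjustment. Its spread was small, with an SD of 0.064 in deletion mice and 0.098 in control mice.

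Cbl, a ubiquitin ligase that marks activated receptors for removal, averaged 7.07 ± 0.21 in deletion mice and 6.92 ± 0.08 in control mice (SD, n = 8 each). It lay between 6.68 and 7.34 in deletion mice (median 7.10) and between 6.76 and 7.01 in control mice (median 6.94). In 5 deletion mice Cbl lay above every control, while deletion mouse 8 lay below every control, so the deletion mice were spread to both sides of the control range. The difference was 0.15 (SE 0.08, limma adjusted p = 0.354).

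Neither partner of Grb2 passed the test. Shc1, the adaptor that brings Grb2 to the receptor, differed by 0.14 (SE 0.08), with deletion mouse 8 well below the others, and Sos1 by -0.07 (SE 0.07). Grb14, an adaptor that binds the receptor and inhibits its kinase, differed by -0.19 (SE 0.12), and its relative Grb10, also an inhibitor, by 0.04 (SE 0.11). Irs1, the main IRS protein of muscle insulin signalling, differed by 0.07 (SE 0.12) on its brighter probe set and by 0.02 (SE 0.11) on the other one. The limma adjusted p-values of these 5 genes were 0.389 or higher.

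Irs2, which encodes the adaptor IRS2, was the member that varied most from mouse to mouse. It read 7.37, 7.10, 6.26, 6.25, 6.53, 6.32, 6.29 and 5.80 in deletion mice 1 to 8, against 6.13, 6.24, 5.87, 7.63, 6.34, 7.79, 5.93 and 5.84 in control mice 1 to 8. Deletion mice 1 and 2 and control mice 4 and 6 stood above the rest, so high values occurred in both groups. The difference was 0.02 (SE 0.29, 95% interval -0.59 to 0.63, limma adjusted p = 0.983), and changes within that wide interval are not excluded. The spread of Irs2 within groups, an SD of 0.66, was larger than that of 99.2% of the genes tested, whose median was 0.18. Irs2 was singled out after its values were seen.

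The FoxO factors bind DNA at the letters GTAAACA, and insulin response elements hold the related letters CAAAACA. Both were searched on both strands (TGTTTAC and TGTTTTG on the other strand) in RefSeq promoter windows of GRCm38.p6, which run from 250 bases before to 50 bases after a transcription start. Windows were at hand for 29 of the 32 listed genes, 41 windows in all. The first motif was in 1 of these 41 windows (Akt1), and in 3.65% of 32851 windows of the annotation. The second was in 2 of the 41 (Irs1 and Irs2), and in 6.28% of all windows. No matches overlapped. The 3 windows with a match are shown with the matching letters in capitals, beside 1 window of Tbc1d1, the member with the largest difference, which has neither motif. Each is 300 bases, 5′ to 3′ along the gene.
Akt1, chr12:112674835-112675134, minus strand: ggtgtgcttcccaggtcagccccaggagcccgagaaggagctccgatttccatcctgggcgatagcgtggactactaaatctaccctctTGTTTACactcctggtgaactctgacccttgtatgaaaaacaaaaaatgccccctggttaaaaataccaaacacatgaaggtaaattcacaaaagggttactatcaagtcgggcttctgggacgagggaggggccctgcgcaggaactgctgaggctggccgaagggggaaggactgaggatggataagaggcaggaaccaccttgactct
Irs1, chr1:82291390-82291689, minus strand: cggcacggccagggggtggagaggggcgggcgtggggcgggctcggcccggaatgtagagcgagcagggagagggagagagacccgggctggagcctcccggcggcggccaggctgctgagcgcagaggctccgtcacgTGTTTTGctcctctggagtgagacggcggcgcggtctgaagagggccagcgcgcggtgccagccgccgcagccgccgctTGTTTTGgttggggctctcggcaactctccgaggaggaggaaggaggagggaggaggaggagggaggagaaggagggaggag
Irs2, chr8:11008880-11009179, minus strand: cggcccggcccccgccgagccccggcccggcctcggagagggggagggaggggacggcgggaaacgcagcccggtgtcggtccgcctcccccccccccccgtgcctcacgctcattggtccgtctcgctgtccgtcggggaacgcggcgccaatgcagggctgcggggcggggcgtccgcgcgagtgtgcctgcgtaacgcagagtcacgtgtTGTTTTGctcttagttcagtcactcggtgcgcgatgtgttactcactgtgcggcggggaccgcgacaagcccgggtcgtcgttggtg
Tbc1d1, chr5:64160010-64160309, plus strand: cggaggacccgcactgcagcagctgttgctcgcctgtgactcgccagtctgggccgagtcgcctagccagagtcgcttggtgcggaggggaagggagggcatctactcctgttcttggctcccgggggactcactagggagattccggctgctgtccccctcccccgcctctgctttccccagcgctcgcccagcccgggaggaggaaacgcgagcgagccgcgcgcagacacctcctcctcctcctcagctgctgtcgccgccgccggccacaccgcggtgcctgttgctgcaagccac
The match in Akt1 starts 161 bases before the transcription start of its window. Those in Irs1 start 111 and 32 bases before the start, and the match in Irs2 starts 37 bases before it. Akt1 has another window, at a different transcription start, which holds neither motif. A match is only a stretch of letters here, since binding was not measured, and none of Akt1, Irs1 and Irs2 passed the test.

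The lipid kinase and the kinases downstream of it made up 8 measured members, whose differences ran from -0.03 to 0.18. Akt1, the AKT form found in most tissues, and Akt2, the form linked most closely to glucose uptake, did not show a common shift. Akt1 averaged 7.25 ± 0.25 in deletion mice and 7.07 ± 0.24 in control mice, a difference of 0.18 (SE 0.12, limma adjusted p = 0.440). It ranged from 6.76 to 7.51 in deletion mice (median 7.23) and from 6.56 to 7.30 in control mice (median 7.16). In deletion mice 2, 5 and 6 Akt1 stood above every control, and the other 5 lay inside the control range. Leaving out the 6 mice with high Alb described further on gave a difference of -0.00 (SE 0.13) for Akt1, and leaving out control mouse 7 alone gave 0.11.

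Akt2 averaged 7.70 ± 0.14 in deletion mice and 7.71 ± 0.11 in control mice, with a 95% interval for the difference of -0.16 to 0.13. The PI3K catalytic subunits Pik3ca and Pik3cb differed by 0.00 (SE 0.08) and 0.05 (SE 0.10). Of the regulatory subunits, Pik3r2 ranged from 5.99 to 6.38 in deletion mice (median 6.15) and from 5.82 to 6.32 in control mice (median 6.07). The groups overlapped nearly throughout, with a difference of 0.07 (SE 0.07, limma adjusted p = 0.656), or 0.03 without control mouse 7.

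Pik3r1, which encodes the main regulatory subunit, differed by 0.09 (SE 0.16) and varied widely, with a within-group SD of 0.36. Deletion mouse 4 read 9.60, above the other deletion mice (8.58 to 9.15). In the controls Pik3r1 was highest in mice 1 and 3, at 9.31 and 9.30, and lowest in mouse 6, at 8.39. Control mouse 6 was also the mouse with the highest Irs2. Pdpk1, the kinase that activates AKT, differed by -0.03 (SE 0.07), and Gsk3b, the glycogen synthase kinase that AKT inhibits, by 0.05 (SE 0.06).

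The largest difference of the whole set was that of Tbc1d1, on chromosome 5. Tbc1d1 encodes a Rab GTPase-activating protein that restrains movement of glucose transporters until AKT or AMP-activated protein kinase phosphorylates it. It read 8.04, 8.81, 8.00, 8.82, 8.88, 8.68, 8.82 and 9.11 in deletion mice 1 to 8, against 9.29, 9.29, 9.19, 9.03, 8.59, 8.72, 9.16 and 9.23 in control mice 1 to 8. All 8 deletion mice lay below the control median, but only deletion mice 1 and 3 lay below every control. The means were 8.64 ± 0.41 in deletion mice and 9.06 ± 0.27 in control mice (SD, n = 8 each). The difference of -0.42 (SE 0.15, 95% interval -0.74 to -0.09) is a ratio of 0.749 and did not pass over all genes tested (limma adjusted p = 0.176). The exact two-sided permutation p was 0.0266 before adjustment.

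A second Tbc1d1 probe set, dimmer and not used in the count, averaged 4.69 ± 0.32 in deletion mice and 5.00 ± 0.29 in control mice. Its difference was -0.31 (SE 0.14, limma adjusted p = 0.260 with all probe sets tested). Deletion mouse 3 read lowest on both probe sets, and deletion mouse 1 second lowest. The dimmer probe set lay near the array medians of 4.43 to 4.61, and there these mice read 4.01 and 4.485. Along chromosome 5 in RefSeq (GRCm38.p6, used for order alone), the nearest tested neighbours of Tbc1d1 were Pgm2 on one side and Klf3 on the other. They differed by 0.35 (SE 0.12, limma adjusted p = 0.136) and 0.18 (SE 0.10, limma adjusted p = 0.367), both of opposite sign to Tbc1d1.

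The highest Grb10 and the lowest Tbc1d1 occurred in the same mice. Grb10 was highest in deletion mouse 3 (7.50), control mouse 5 (7.47) and deletion mouse 1 (7.39), and these were the mice with the lowest Tbc1d1 of the 16 (8.00, 8.59 and 8.04). The next mice did not follow this pattern. Deletion mouse 6 had the next lowest Tbc1d1 (8.68) with Grb10 at 6.92. Control mouse 4 had the next highest Grb10 (7.29) with Tbc1d1 at 9.03. The pattern was picked after the values were seen and was not tested.

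Tbc1d4, the related Rab regulator also known as AS160, had a smaller difference of the same sign, and the gap between both genes was not tested. It differed by -0.10 (SE 0.11, limma adjusted p = 0.690), with deletion mice between 7.20 and 7.64 and control mice between 7.26 and 7.94. Without control mouse 6 it differed by -0.04, and without the 6 mice with high Alb by -0.24 (SE 0.15). Rac1, the small GTPase that remodels actin for glucose transporter movement, averaged 10.41 ± 0.09 in deletion mice and 10.30 ± 0.08 in control mice. It ranged from 10.29 to 10.55 in deletion mice (median 10.40) and from 10.21 to 10.44 in control mice (median 10.27). All 8 deletion mice lay above the control median, and 2 of them above every control. The difference of 0.11 (SE 0.06) did not pass (limma adjusted p = 0.344). Before adjustment the limma p was 0.0781 and the exact permutation p 0.0309.

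Of the phosphatases, Ptpn1 had the smallest limma p of all 30 members, while Grb2 had a smaller exact permutation p. Ptpn1 encodes PTP1B, which removes phosphate from the insulin receptor. It read 6.11, 6.13, 5.89, 6.23, 6.27, 6.43, 6.01 and 5.88 in deletion mice 1 to 8, against 5.68, 6.10, 5.84, 5.88, 6.05, 5.86, 5.87 and 5.87 in control mice 1 to 8. In 5 of 8 deletion mice Ptpn1 was above every control, and deletion mice 3, 7 and 8 lay inside the control range. The means were 6.12 ± 0.19 and 5.89 ± 0.13 in deletion and control mice, a difference of 0.23 (SE 0.08, 95% interval 0.05 to 0.40). This did not pass over all genes tested (limma adjusted p = 0.169; exact permutation p = 0.0145 before adjustment). Inppl1, which encodes the lipid phosphatase SHIP2, ranged from 7.11 to 7.59 in deletion mice (median 7.29) and from 7.21 to 7.55 in control mice (median 7.45). Of the deletion mice 7 lay below the control median, and the difference of -0.08 (SE 0.07) did not pass (limma adjusted p = 0.586).

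**Figure D2:**
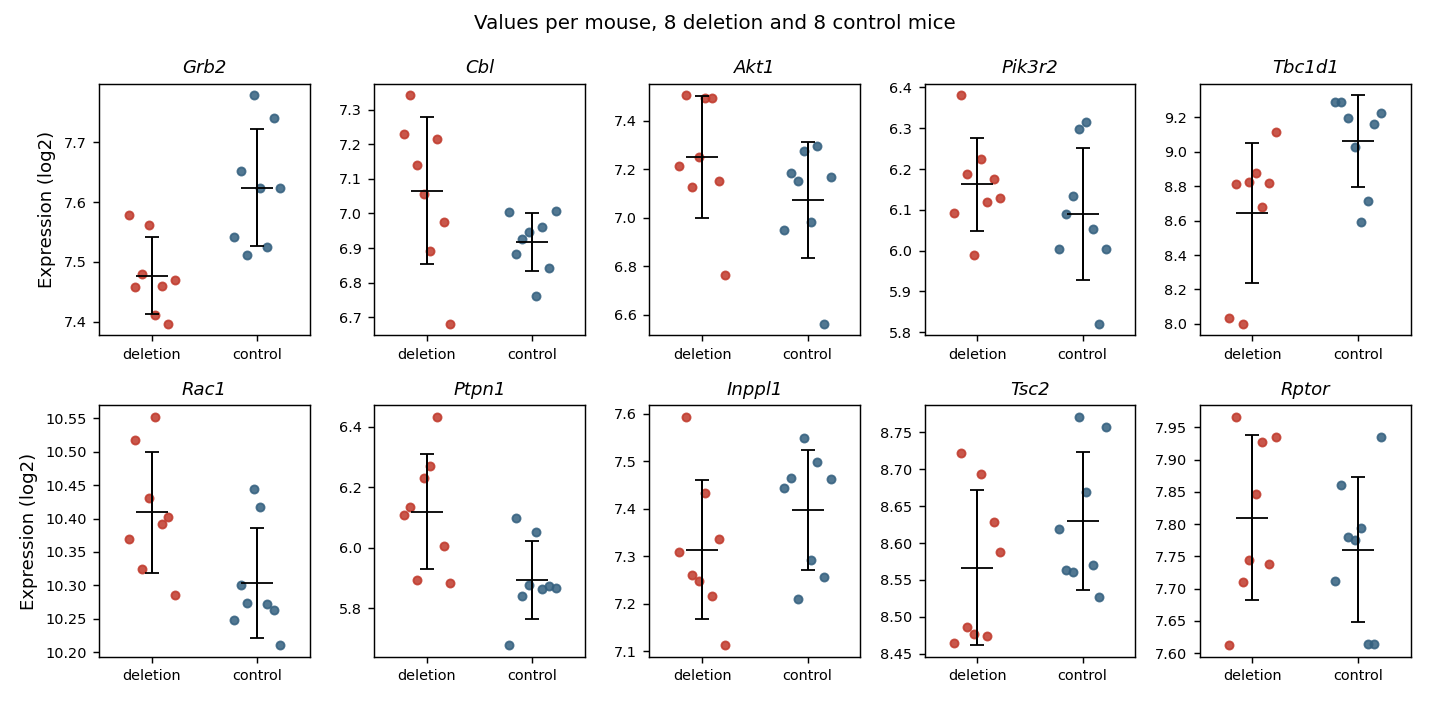
Expression (log2, vertical axis, scaled to each gene) per mouse for the 10 members described in full, 2 for each step of the pathway, deletion mice left and control mice right. Points are mice, bars the mean and SD of 8 mice. In all 10 panels the groups overlap, and Tbc1d1 has 2 deletion mice near 8.0 apart from the rest.

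The mTOR step was the most level part of the pathway, with 8 measured members and differences from -0.06 to 0.05. Tsc2, which with Tsc1 forms the complex that holds Rheb in check, ranged from 8.46 to 8.72 in deletion mice (median 8.54) and from 8.53 to 8.77 in control mice (median 8.60). Deletion mice 1, 3, 4 and 6 lay below every control, and the other 4 were spread over the control range. The difference was -0.06 (SE 0.06, limma adjusted p = 0.632). Rptor, the scaffold of the mTOR complex that drives translation, ranged from 7.61 to 7.97 in deletion mice (median 7.80) and from 7.61 to 7.94 in control mice (median 7.78). Its groups covered the same range, and the difference was 0.05 (SE 0.07, limma adjusted p = 0.754).

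Mtor itself averaged 7.91 ± 0.22 in deletion mice and 7.92 ± 0.11 in control mice, with a 95% interval for the difference of -0.19 to 0.18. Rictor, the scaffold of the complex that phosphorylates AKT, differed by -0.02 (SE 0.06), Tsc1 by 0.04 (SE 0.10) and Rheb by -0.04 (SE 0.06). The cap-binding factor Eif4e and its inhibitor Eif4ebp1, a target of mTOR and in fly a FoxO target, differed by -0.04 (SE 0.08) and -0.00 (SE 0.08). The limma adjusted p-values of all 8 were 0.632 or higher. These values concern transcripts, and phosphorylation, through which most of this pathway signals, was not measured.

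Some single mice stood out over many members. Deletion mouse 2 had the highest value of the 16 mice for 11 of the 30 members, among them Insr, Pik3ca, Akt1, Mtor and Tsc1, and the lowest for 0. Deletion mouse 3 had the lowest value for 5 members, among them Insr, Pik3ca, Mtor and Tsc1. Deletion mouse 2 thus opposed deletion mouse 3 for those genes. How often these mice read highest or lowest over all genes tested was not counted. The counts therefore cannot be called particular to the members. The SD was larger in the deletion mice than in the control mice for 17 of 30 members, and for 8679 of the 13601 genes tested.

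**Figure D3:**
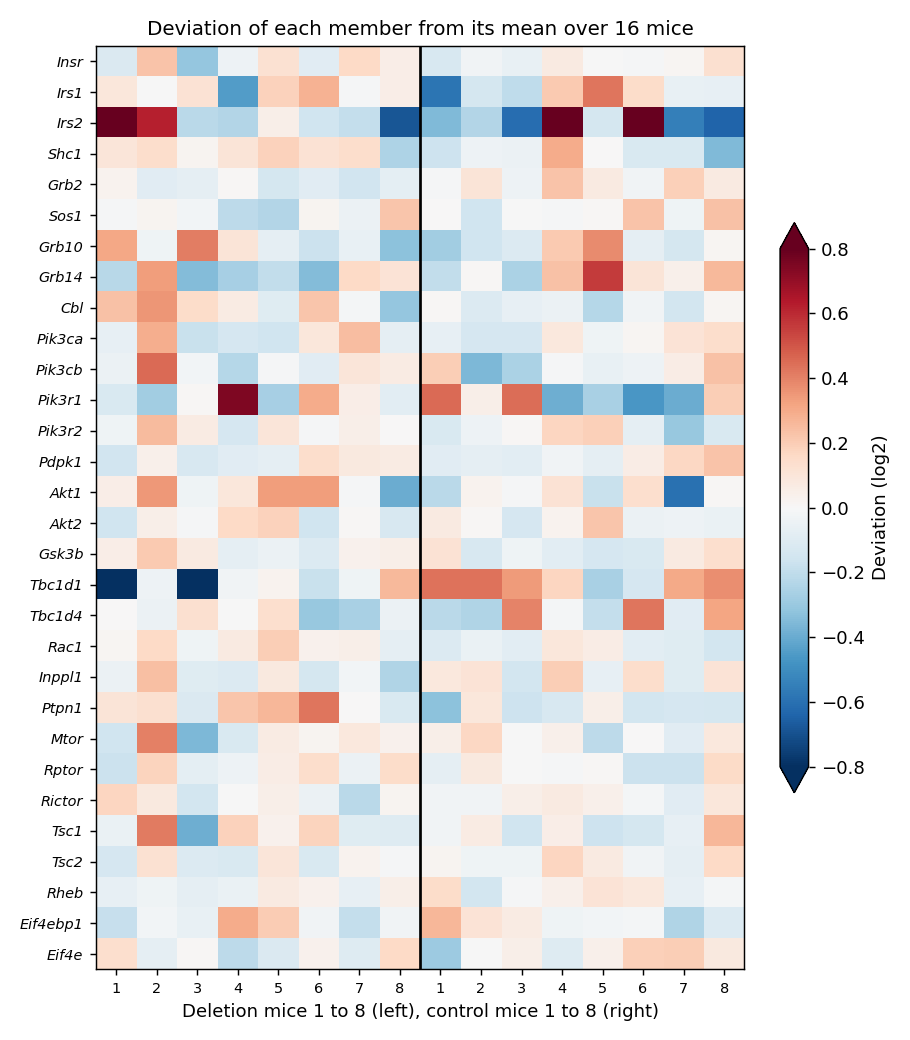
Deviation of each of the 30 members (rows) from its own mean over 16 mice (log2, colour, saturated at 0.8), with deletion mice 1 to 8 left of the line and control mice 1 to 8 right of it. Irs2 is high in deletion mice 1 and 2 and in control mice 4 and 6, Tbc1d1 is low in deletion mice 1 and 3, and deletion mouse 2 is high over many rows.

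A wider list of 74 other genes of the pathway had 63 with a probe set of their own, and 59 passed the filter. Of these 59, 1 rose and 0 fell at a limma adjusted p under 0.05, which is 1.69%, close to the 1.83% of all genes. Their median difference was 0.03, against 0.00 over all genes. Of the differences 39 were positive and 20 negative (66.1% positive), against 50.2% positive over all genes tested. The gene that rose was Pik3c2a, which encodes a class II PI3K that acts in membrane traffic and in vessel formation.

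Pik3c2a read 7.19, 7.14, 7.13, 7.11, 6.95, 7.08, 6.79 and 6.82 in deletion mice 1 to 8, against 6.75, 6.44, 6.76, 6.65, 6.64, 6.97, 6.76 and 6.73 in control mice 1 to 8. All 8 deletion mice lay above the control median and 5 above every control. The difference was 0.31 (SE 0.08, limma adjusted p = 0.0454), just past the threshold. The call was lost in 13 of 16 fits that left out 1 mouse, all but those without deletion mouse 7, deletion mouse 8 or control mouse 6, with differences from 0.28 to 0.35 over the 16. It was also lost without the 6 mice with high Alb (0.20, limma adjusted p = 0.422), with arrays centred (0.26) or quantile normalized (0.27), with array weights (0.30), with no filter, and with the replicate number as a block (limma adjusted p = 0.0752). Over all alternatives its adjusted p ran from 0.0179 to 0.422.

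Next in order of p among the positive differences were Ddit4 and Tns2. Ddit4, also called REDD1, is a stress-induced inhibitor of mTOR, and ranged from 6.25 to 8.40 in deletion mice (median 6.98) and from 5.83 to 6.62 in control mice (median 6.31). In 6 deletion mice Ddit4 stood above every control, with deletion mouse 4 highest, and the difference of 0.79 (SE 0.23) did not pass (limma adjusted p = 0.0876). Tns2, a tensin with a phosphatase domain, differed by 0.31 (SE 0.09, limma adjusted p = 0.0893), with all 8 deletion mice above the control median.

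On the negative side, Ddit4l, also called REDD2, the muscle-rich relative of Ddit4, ranged from 9.00 to 10.11 in deletion mice (median 9.39) and from 9.73 to 10.36 in control mice (median 9.90). In 5 deletion mice it lay below every control, and the difference of -0.45 (SE 0.15) was of opposite sign to that of Ddit4 and did not pass (limma adjusted p = 0.138). Rragd, a Rag GTPase that brings mTOR to the lysosome, differed by -0.17 (SE 0.07), and Akt1s1, an AKT substrate that inhibits mTOR, by -0.16 (SE 0.09). Their limma adjusted p-values were 0.193 and 0.388. Without deletion mouse 8 the wider list had 7 genes past the threshold, Ddit4, Ddit4l, Inpp5d, Pik3c2a, Pik3cg, Slc2a1 and Tns2, while the 30 members still had 0. In that same fit 680 of the 13601 genes tested passed, against 249 with all mice. In that fit Ptpn1 differed by 0.26 (limma adjusted p = 0.0742) and Tbc1d1 by -0.48 (limma adjusted p = 0.0748).

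**Figure D4:**
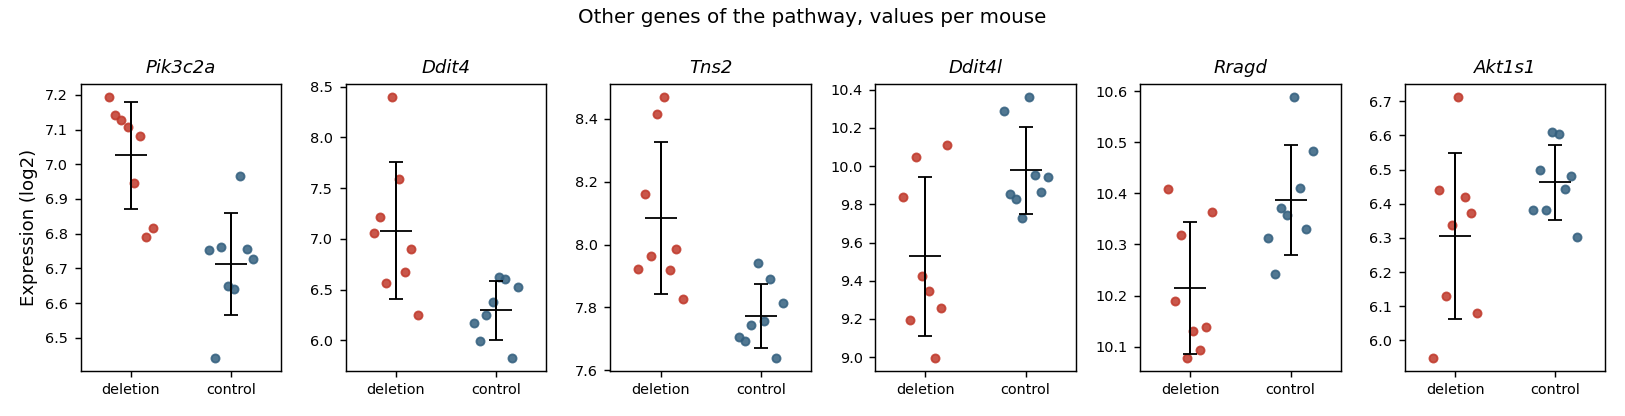
Expression (log2, vertical axis, scaled to each gene) per mouse for 6 other genes of the pathway, the 3 positive and the 3 negative differences with the smallest p, deletion mice left and control mice right. Points are mice, bars the mean and SD of 8 mice. Pik3c2a is the gene past the threshold, and deletion mouse 4 reads 8.40 for Ddit4.

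The targeted transcripts, set beside these values, differed by 0.07 (SE 0.12) for Foxo1, 0.50 (SE 0.14) for Foxo3 and -0.24 (SE 0.10) for Foxo4 in whole muscle, and none passed over all genes (limma adjusted p = 0.804, 0.0762 and 0.236). Foxo1 ranged from 7.05 to 8.23 in deletion mice (median 7.25) and from 7.22 to 7.38 in control mice (median 7.29). Its medians thus differed in the opposite direction to its means. Foxo3 ranged from 5.42 to 6.66 against 5.19 to 5.66, with all 8 deletion mice above the control median. Foxo4 ranged from 6.77 to 7.48 against 7.26 to 7.73. The position of the Foxo probe sets relative to the loxP-flanked exons was not used here. Array medians lay between 4.43 and 4.61. Skeletal muscle fibre markers were bright on every array, with 0 of 10 past the threshold and a summed level of 15.95 to 16.09 in deletion mice and 15.98 to 16.12 in control mice (log2 of summed linear values). Endothelial markers were higher in deletion mice for 9 of 12 (summed level 11.74 to 12.39, against 11.43 to 11.78 in control mice). Macrophage markers were higher for 3 of 10 (9.83 to 11.38, against 9.50 to 10.23). Adipocyte markers were higher for 1 of 7 (11.77 to 12.41, against 11.19 to 11.98), and fibroblast and tendon markers lower for 1 of 8 (12.59 to 13.49, against 12.70 to 13.23). Smooth muscle and pericyte markers (0 of 8; 12.23 to 12.52, against 12.07 to 12.46) and Schwann cell markers (0 of 5; 8.81 to 10.85, against 8.65 to 10.62) had none past the threshold. The part of these cells in the difference of Pik3c2a was not tested.

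Liver transcripts marked out 6 mice. Alb, the albumin gene, read between 10.02 and 11.68 in deletion mice 1, 2, 4 and 5 and in control mice 2 and 7, and between 4.23 and 8.18 in the other 10. The liver list had 0 of 5 genes past the threshold (summed level 7.11 to 12.06 in deletion mice, against 7.20 to 11.58 in control mice). Without these 6 mice, 0 of the 30 members passed at 4 deletion mice against 6 control mice, and 0 had an unadjusted p under 0.05, against 12.1% of all genes. Tbc1d1 then differed by -0.35 (SE 0.20), Ptpn1 by 0.19 (SE 0.11), Grb2 by -0.15 (SE 0.08) and Irs2 by -0.43 (SE 0.37).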

How the data were processed

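RNA of the gastrocnemius muscle was measured with 1 array per mouse, from 250 ng of total RNA per the labels' protocols. The authors deposited log2 values for each probe set. The submitters' processing notes name RMA and the oligo package, with no version. Log2 is inferred from the range of the values, 0.33 to 13.84. RMA adjusts arrays to each other, although the deposited array medians still lie between 4.43 and 4.61, and absolute RNA amounts are not measured. Precision is limited by the number of arrays, and scan batches were not analysed here.

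Of 41345 probe sets, 23521 had 1 gene symbol, 1814 several and 16010 none, and only the first were named. Probe sets above the median of their array in 8 or more mice were kept, the brightest for each gene, which left 13601 genes. Deletion and control mice were compared in R 4.3.3 by the two-sided moderated test of limma 3.58.1 (lmFit, eBayes) without covariates, and p-values were adjusted by Benjamini-Hochberg over all genes tested. Exact permutation tests of single genes used all 12870 arrangements of the mice, where the smallest p is 0.000155. Among the members described in full, those not given above had exact permutation p-values of 0.0864 (Cbl), 0.173 (Akt1) and 0.321 (Pik3r2). For Inppl1, Tsc2 and Rptor they were 0.235, 0.223 and 0.415. These tests were not run over all genes.

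The members, the wider pathway list and the marker lists were chosen with earlier results of these data known. Described in full were the 2 members with the smallest p in each step, and the other pathway genes past the threshold or among the 3 with the smallest p in each direction. Other genes given value by value were chosen after their values were seen: Insr, Irs2, Pik3r1, Grb10, the neighbours of Tbc1d1, and Alb. Alternatives were another filter, scaling, probe set choice or variance model, the replicate number as a block, an adjusted p under 0.10 and leaving out each mouse. Leaving out the 6 mice with high Alb was added after the data were seen.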

Additional observations from a re-analysis of the deposited data

Results flagged for a closer look

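Irs1 in deletion mouse 4 read 6.89 on the log2 scale, apart from the other deletion mice, of which the nearest read 7.32. Shc1 in deletion mouse 8 read 6.12, where the nearest deletion mouse read 6.39. Each gap was a larger share of the group's range (0.602 and 0.624) than Dixon's 95% critical value for 8 samples. In all, 72 groups of 8 values were examined, and chance marks about 1 in 20.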

How the results depend on the processing

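The count of 0 members past the threshold was the same under all alternatives run, among them a threshold of 0.10, and the lowest adjusted p of any member in them was 0.0742 (Ptpn1, without deletion mouse 8). Of the 30 members, 13 kept the sign of their difference throughout, Grb2, Tbc1d1, Rac1 and Ptpn1 among them, and 17 turned it at least once, none of which had passed. Centring the arrays moved the difference of every gene by -0.05, which turns any small positive one, and for Gsk3b and Rptor it was the only alternative that turned the sign. With arrays centred the turned differences were Insr -0.0504, Irs2 -0.0335, Grb10 -0.0132, Pik3ca -0.0481, Gsk3b -0.0065, Rptor -0.0036, Tsc1 -0.0108, with quantile normalization Insr -0.0267, Irs2 -0.0245, and without the 6 mice with high Alb Insr -0.0468, Irs2 -0.4303, Grb10 -0.0591, Pik3cb -0.0001, Pdpk1 0.0355, Akt1 -0.0035, Tsc1 -0.0738, Eif4e 0.0314. Over the fits that left out 1 mouse, the members that turned ranged as follows: Insr -0.03 to 0.0468, Irs1 -0.013 to 0.1342, Irs2 -0.1067 to 0.2074, Grb10 -0.016 to 0.0968, Pik3ca -0.0359 to 0.0306, Pik3cb -0.0058 to 0.0927, Pik3r1 -0.0103 to 0.1612, Pdpk1 -0.0511 to 0.0019, Akt2 -0.0407 to 0.0166, Mtor -0.0669 to 0.0425, Rictor -0.0475 to 0.0071, Tsc1 -0.0138 to 0.1011, Eif4ebp1 -0.0464 to 0.0335. The other 17 kept their sign in those fits but some moved by over 1.5 times: Sos1 -0.1022 to -0.0366, Grb14 -0.2526 to -0.125, Pik3r2 0.0343 to 0.105, Akt1 0.1057 to 0.2481, Gsk3b 0.0202 to 0.069, Tbc1d4 -0.1388 to -0.0427, Inppl1 -0.1238 to -0.055, Rptor 0.0272 to 0.0778, Rheb -0.0589 to -0.0169, Eif4e -0.0847 to -0.0138. The number of other pathway genes past the threshold, 1, was 0 with no filter, with arrays centred, with quantile normalization, with array weights and without the mice with high Alb, was 5 at a threshold of 0.10, and ranged from 0 to 7 when 1 mouse was left out. The number of all genes past the threshold, 249, was 137 with no filter, 505 at 0.10, 7 without the mice with high Alb (4 against 6 mice), and 107 to 680 when 1 mouse was left out (680 without deletion mouse 8). Same-numbered mice of both groups did not clearly deviate together (correlations from -0.083 to 0.25, and 1 of 8 correlated best with its own number). This check cannot exclude that the numbers pair the mice. With the replicate number as a block 213 genes passed, 0 of them members and 1 from the other pathway genes, which was Pik3cg (limma adjusted p = 0.0377) and not Pik3c2a (0.0752). The cause of these changes was not tested. Some settings also had fewer mice or a larger number of genes tested.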
